A study of Drosophila melanogaster with 3 samples.

Results

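Mediator and TFIID are the protein complexes that bring RNA polymerase II to promoters, and the genes for their subunits are described here as targets in a ChIP-seq experiment on CG3281, a C2H2 zinc finger protein of Drosophila melanogaster. The 40 genes were taken from 13945 protein-coding genes of the dm6 assembly by symbol alone, MED or Taf followed by a number: 25 for Mediator and 15 for TFIID. Subunits with other symbols, such as skd, kto, CycC, Cdk8, ix and Tbp, are not among the 40 and are given at the end. The embryos, 0 to 24 h old and of mixed sex, came from 1 transgenic line that stably expresses CG3281 with GFP at its C terminus, and chromatin was precipitated with an antibody to GFP. The 3 samples are labelled as biological replicates of this single group. The authors' region calling also took a control input, and no line without the tag was used here. Whole embryos mix all cell types and a full day of development, so weak binding in many nuclei and strong binding in few cannot be told apart.

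Mediator is a bridge between transcription factors bound at enhancers or promoters and the polymerase. Its head and middle modules contact the polymerase, its tail is contacted by activators, and MED14 runs through it as a backbone. TFIID holds the TATA-binding protein and the TBP-associated factors, the Tafs, most of which pair with each other through histone folds, and it recognizes core promoters as the first step of assembly. Both act at a wide range of genes and in many cell types, embryonic ones included.

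Each of the authors' lists gives a region with a summit and a signal value that ranks it within that list only. The reproducible set (IDR, for irreproducible discovery rate) has 6565 peaks with 1 summit each. A gene was counted as bound when any of its transcription start sites (TSSs) had such a summit no more than 500 bp away. A promoter was called shared when a TSS of another protein-coding gene, on the opposite strand, lay within 1000 bp upstream of a TSS of the member, and one-way otherwise. Peak lists give no read counts, so read depth is unknown and the intervals below cover counting error over genes only.

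The sequences at 6 of the summits are shown: MED30, MED17, Taf4 and MED27, which carry strong peaks away from UTRs, and the weaker MED7 and Taf11, whose windows held several of the A/T words described further on. Each window is printed 5′ to 3′ on the strand of the member gene, from the RefSeq dm6 assembly. Capitals mark any of 5 words on either strand, with overlapping matches joined. The first word is AATATT, the next is ATATTA, the one after it is TATTAA, then comes TTATAA, and the last one is TTTAAA. The windows lie at chr3L:654208-654308 (MED30, minus strand), chr3R:18188789-18188889 (MED17, plus), chr3L:16113598-16113698 (Taf4, plus), chr3R:5654950-5655050 (MED27, plus), chr3R:10761078-10761178 (MED7, minus) and chr2L:9763299-9763368 (Taf11, minus, shortened to end before a UTR).
MED30: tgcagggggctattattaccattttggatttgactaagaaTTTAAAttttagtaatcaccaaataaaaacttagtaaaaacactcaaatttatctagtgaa
MED17: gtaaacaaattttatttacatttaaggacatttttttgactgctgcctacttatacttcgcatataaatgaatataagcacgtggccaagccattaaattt
Taf4: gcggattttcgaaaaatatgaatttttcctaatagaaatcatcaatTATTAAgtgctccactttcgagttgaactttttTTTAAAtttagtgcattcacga
MED27: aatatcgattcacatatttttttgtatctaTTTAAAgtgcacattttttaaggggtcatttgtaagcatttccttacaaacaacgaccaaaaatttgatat
MED7: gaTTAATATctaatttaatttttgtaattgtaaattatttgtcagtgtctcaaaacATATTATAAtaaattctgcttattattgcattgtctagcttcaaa
Taf11: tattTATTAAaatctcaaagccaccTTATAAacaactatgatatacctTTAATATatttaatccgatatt
The MED30, MED27 and Taf4 windows hold 1, 1 and 2 matches, the MED7 and Taf11 windows 4 each, and the MED17 window 0.

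Of the 40 genes, 15 were bound, a share of 37.5% (exact 95% interval 22.7 to 54.2). Over all protein-coding genes the share was 24.8%, or 3456 of 13945, which lies inside that interval. The bound members used 15 different peaks, so no peak was counted for a pair of members. In the 3 replicates, scored with the strongest 6565 regions of each list, 18, 18 and 15 members were bound, against 24.8%, 26.3% and 24.1% of all genes. These are 45%, 45% and 37.5% of the members, a mean of 42.5% ± 4.33 (SD, n = 3), and the share of members was above that of all genes in each of the replicates. The members also differ from other genes in promoter kind: 77.5% of them have a shared promoter, against 36.2% of all genes. Within each kind the members' share was near that of all genes, as given below.

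Of the Mediator genes 10 of 25 were bound, 40% (exact 95% interval 21.1 to 61.3), and of the TFIID genes 5 of 15, 33.3% (11.8 to 61.6). The difference of 6.67 percentage points had an odds ratio of 1.32 with an exact 95% interval from 0.294 to 6.52 (Fisher's exact test, two-sided, p = 0.75, adjusted p = 0.75 over the 2 comparisons made among the members). In replicates 1, 2 and 3 the difference was -2.67, 18.7 and 17.3 points, a mean of 11.1 ± 11.95 (SD, n = 3), so its sign was not the same in all of them. The interval is wide, and with these numbers of genes the test does not show that the complexes were bound alike.

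**Figure D1:**
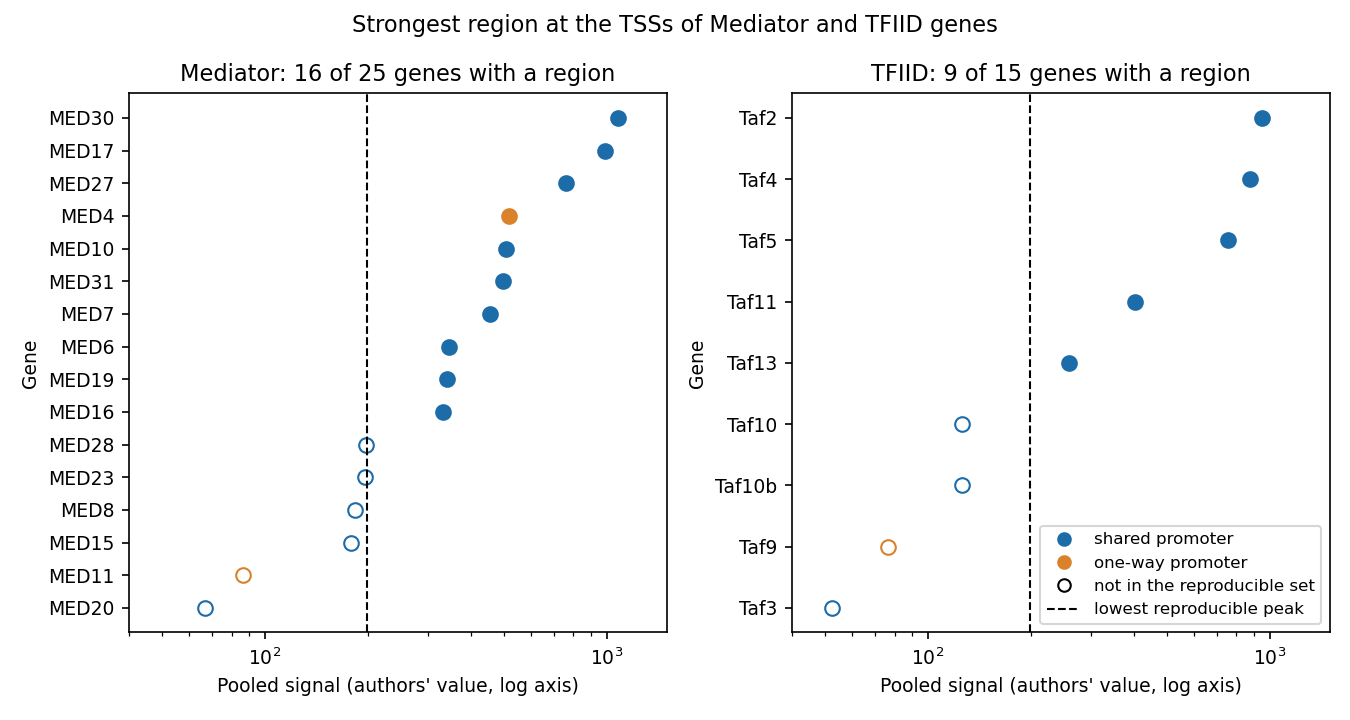
Pooled signal of the strongest region at each gene (horizontal log axis, authors' values) for the 16 Mediator and 9 TFIID genes with a region of the pooled list within 500 bp of a TSS; filled points are in the reproducible set, open points are not, colour gives the promoter kind, and the dashed line is the lowest signal of the reproducible set, 198.3. MED28 and MED23 lie just below the line.

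Among the Mediator genes the strongest peak lay at MED30 (FBgn0035149; 3L, 652987 to 654089, minus strand), a subunit found in animals that lies between the head and the tail. Its summit, 169 bp upstream of the TSS and between MED30 and Rev1, a gene for a DNA polymerase that copies past damage, had a pooled signal of 1082 and rank 562 in the set. The strongest region at its TSS was 10.3, 10.02 and 8.06 times the median signal of the list in replicates 1, 2 and 3, a mean of 9.47 ± 1.24 (SD, n = 3). All 3 values were high, and no bound member had a higher mean.

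MED17 (FBgn0038578; 3R, 18189072 to 18191265, plus strand), the central subunit of the head, had 2 reproducible summits. The stronger, with a signal of 989, lay at -233 bp (upstream) and nearer to the TSS of CG12321, and the weaker, with 572, lay at -32 bp. The replicate ratios at its TSS were 7.32, 10.2 and 8.07 (mean 8.52 ± 1.47, SD, n = 3). The region of replicate 1 did not reach the stronger summit. MED27 (FBgn0037359; 3R, 5655139 to 5656336, plus strand), which like MED30 sits between head and tail, had a signal of 762 exactly halfway between its own TSS and that of elm, 139 bp from each. Its ratios of 7.16, 8.40 and 4.42 (mean 6.66 ± 2.04, SD, n = 3) had the largest SD among the bound members, with replicate 3 low.

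The middle module held 5 bound genes of 9: MED4, MED10, MED31, MED7 and MED19. MED4 (FBgn0035754; 3L, 7249529 to 7250527, minus strand) had a signal of 519 and its summit 199 bp upstream, in the 3′ UTR of CG14830, and it was the only bound member with a one-way promoter. Its ratios of 4.45, 5.11 and 4.22 lay close together (mean 4.59 ± 0.464, SD, n = 3). MED10 (FBgn0036581; 3L, 16232084 to 16232777, plus strand), with a signal of 507, had its summit 13 bp upstream in the 46 bp between its TSS and that of PDCD-5. The ratios at MED10 were 3.99, 5.13 and 3.54 (mean 4.22 ± 0.822, SD, n = 3).

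MED31 (FBgn0037262; 3R, 4641963 to 4643292, plus strand) had a signal of 497, 192 bp upstream and inside an intron of its partner CG9775. Its ratios were 3.90, 5.13 and 3.64 (mean 4.22 ± 0.798, SD, n = 3). MED7 (FBgn0051390; 3R, 10760071 to 10761032, minus strand) shares 278 bp with Cap-H2, a condensin II subunit gene, and had a signal of 455 at 96 bp upstream. Its ratios were 3.83, 5.25 and 3.03 (mean 4.04 ± 1.12, SD, n = 3). MED19 (FBgn0036761; 3L, 17843725 to 17846501, minus strand) had a signal of 340. It was the only bound member with its summit downstream of the nearest TSS, 88 bp into its own 5′ UTR. The ratios at MED19 were 2.88, 2.65 and 3.12 (mean 2.88 ± 0.231, SD, n = 3). MED4, MED10, MED31 and MED7 were each highest in replicate 2, whereas MED19 was lowest there.

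The head gene MED6 (FBgn0024330; 3R, 9766031 to 9768984, minus strand) had a signal of 345 with its summit in the 5′ UTRs of both MED6 and Naa80, whose TSSs lie 19 bp apart. The summit lay at -42 bp from the nearest of the 5 MED6 TSSs, inside the gene. MED6 was among the strongest regions in replicates 1 and 2, with ratios of 3.65 and 3.61, but not in replicate 3, with 1.84. The tail gene MED16 (FBgn0034707; 2R, 22183138 to 22185892, plus strand) had a signal of 332 at 139 bp upstream, with ratios of 2.58, 3.04 and 2.99 (mean 2.87 ± 0.253, SD, n = 3). By module, 2 of 7 head genes, 5 of 9 middle genes, 1 of 5 tail genes, 2 of the 3 genes between head and tail (MED27, MED28, MED30) and 0 of 1 backbone genes (MED14) were bound. The modules are too small for their shares to be told apart: the exact 95% interval was 3.67 to 71.0% for the head and 21.2 to 86.3% for the middle.

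Among the TFIID genes the strongest peak lay at Taf2 (FBgn0011836; 3L, 9884411 to 9888683, minus strand), a large subunit without a histone fold. Its summit had a signal of 951 and lay 148 bp upstream, in the 5′ UTR of CalpB, a calpain gene whose TSS is 79 bp away, and a second summit of 777 lay at -357 bp. The ratios at Taf2 were 8.38, 8.77 and 7.84 (mean 8.33 ± 0.466, SD, n = 3). In replicate 2 the strongest summit lay at -274 bp, between these 2 summits, and no region spanned the first. Its ratio was thus read at another position than those of replicates 1 and 3, at -146 and -143 bp.

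Taf4 (FBgn0010280; 3L, 16113212 to 16121651, plus strand), a histone fold subunit needed for the stability of TFIID, has 3 TSSs. The summit, with a signal of 878, lay in an intron, at -142 bp from an internal TSS and -1022 bp from the TSS of its partner Zn72D. The ratios were 6.56, 7.85 and 8.12 (mean 7.51 ± 0.834, SD, n = 3). Taf5 (FBgn0010356; 2R, 10877312 to 10879673, minus strand), the WD40 repeat scaffold, had a signal of 758 at 162 bp upstream, in the 301 bp between its TSS and that of Pex6, a peroxisome biogenesis gene. Its ratios of 6.17, 6.27 and 6.96 were similar in all replicates (mean 6.47 ± 0.432, SD, n = 3).

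Taf11 (FBgn0011291; 2L, 9762424 to 9763262, minus strand) and Taf13 (FBgn0032847; 2L, 20093088 to 20093849, minus strand) encode subunits that pair through their histone folds, and both were bound. Taf11 had a signal of 402 at 87 bp upstream, 20 bp from the TSS of und, with ratios of 2.99, 3.66 and 3.51 (mean 3.39 ± 0.350, SD, n = 3). Taf13 had the lowest signal of the bound members, 259, at -134 bp in the 5′ UTR of nesd, a gene with a role in cytokinesis. The ratios at Taf13 were 1.43, 3.70 and 1.56 (mean 2.23 ± 1.27, SD, n = 3). Only replicate 2 placed Taf13 among its strongest regions, and leaving out any 1 replicate removed it from the matched set. Of the TFIID genes without a histone fold 2 of 4 were bound, and of those with one 3 of 10, not counting the testis form Taf12L (0 of 1).

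**Figure D2:**
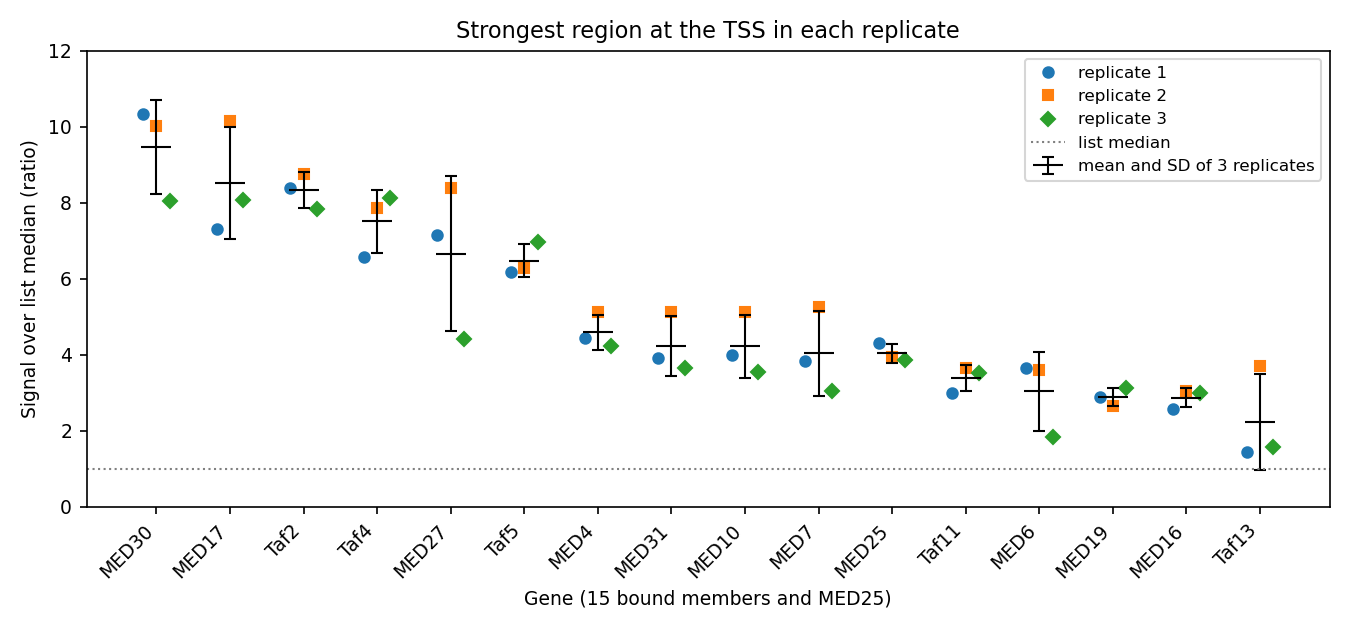
Signal of the strongest region within 500 bp of a TSS over the median of its list (vertical axis, ratio) in each of 3 replicates for the 15 bound members and MED25, ordered by mean; bars are mean and SD, and the dotted line is a ratio of 1. MED6 in replicate 3 and Taf13 in replicates 1 and 3 fall below 2.

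Of the 15 bound members 13, or 86.7%, were called in all 3 replicates, against 73.5% of all bound genes. The median pooled signal of the bound members was 507, with a range from 259 to 1082, and that of all bound genes 411. It was 502 for Mediator and 758 for TFIID. Measured as the ratio to the list median at the pooled summit, the median of the bound members was 3.94, 5.13 and 3.64 in the replicates, a mean of 4.24 ± 0.789 (SD, n = 3), with a region found for 14, 14 and 15 of them. That of all bound genes was 3.54, 3.80 and 3.48, a mean of 3.61 ± 0.170. The members were higher in each replicate, where both values come from the same list. The members' SD over replicates exceeded the gap between these means, but it does not measure the spread among genes. The difference was not tested.

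Shared promoters held nearly all of the bound members. Of 31 members with a shared promoter 14 were bound, 45.2% (exact 95% interval 27.3 to 64.0), and of the 9 with a one-way promoter 1 was, 11.1% (0.281 to 48.2). The difference of 34.1 percentage points had an odds ratio of 6.33 with an exact 95% interval from 0.702 to 313 and did not pass the test (Fisher's exact test, two-sided, p = 0.12, adjusted p = 0.23 over the 2 comparisons). It was 43.7, 43.7 and 34.1 points in replicates 1, 2 and 3, a mean of 40.5 ± 5.59 (SD, n = 3), with the shared promoters higher in each. Over all genes 40.6% of shared promoters and 15.8% of one-way promoters were bound, so the members lay close to the background of each kind. Within Mediator the counts were 9 of 19 and 1 of 6, and within TFIID 5 of 12 and 0 of 3. When a non-coding gene could also be the partner, 15 of 32 shared and 0 of 8 one-way members were bound, and the difference of 46.9 points passed the test (Fisher's exact test, p = 0.016, adjusted p = 0.032). This pass rests on MED4 alone, the only bound one-way member, which then counted as shared. No other alternative passed, and the adjustment does not cover the choice among them. No share of all genes is given for this definition.

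**Figure D3:**
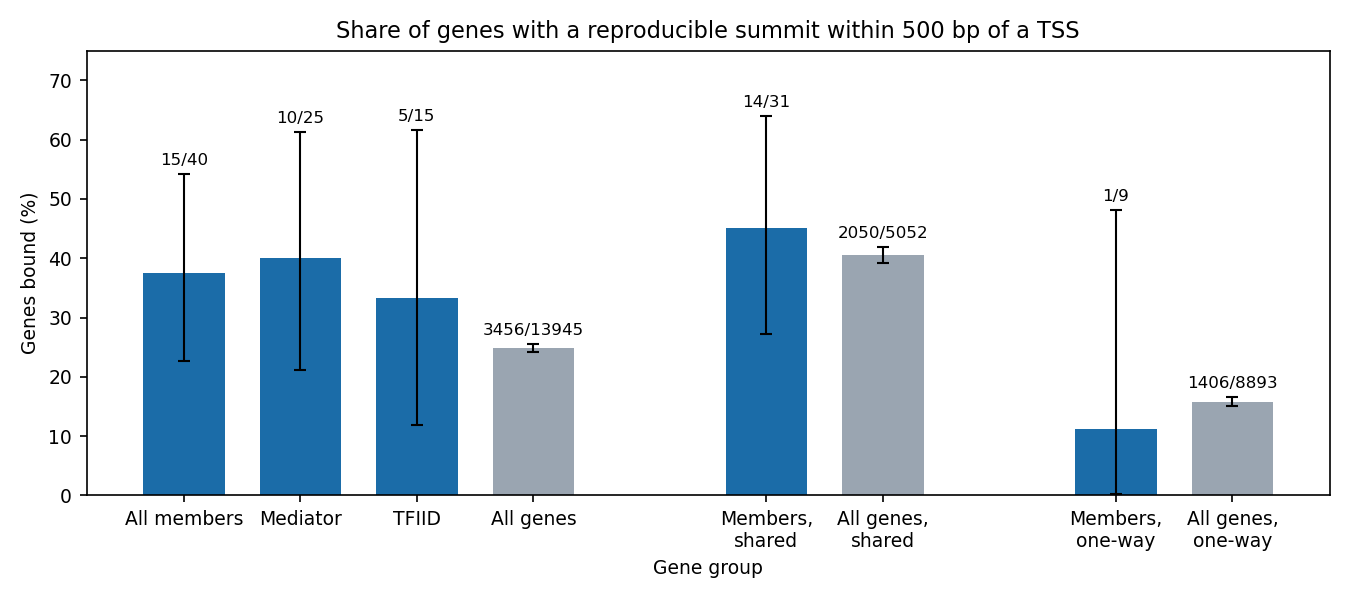
Share of genes bound (vertical axis, %) for all members, Mediator, TFIID and all protein-coding genes, and for members and all genes by promoter kind; error bars are exact 95% intervals and the numbers are bound genes over genes. The members stand at 45.2% for shared and 11.1% for one-way promoters, beside 40.6% and 15.8% of all genes.

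At a shared promoter the peak cannot be given to one gene or the other by position alone. Of the 14 shared promoters with a bound member, the partner's TSS was nearer to the summit in 9, the member's in 4, and 1 was equal. The same summit lay within 500 bp of the partner's TSS in 12 of the 14, all but Taf4 and MED19. In 9 it lay upstream of the nearest TSS of both genes. These 9 include Taf4, whose summit lay upstream of an internal TSS, in an intron, and outside the 586 bp that separate Taf4 from Zn72D. When each summit was given only to the gene of its nearest TSS, 7 members were bound, 17.5%, against 19.3% of all genes. These 7 were MED4, MED7, MED10, MED17, MED19, MED27 and Taf4. By promoter kind they were 6 of 31 shared and 1 of 9 one-way members, a difference of 8.24 points. The TSSs of bound shared promoters lay a median of 266.5 bp apart, from 19 to 586, and those of unbound members 164 bp, from 45 to 859. Over all genes with a shared promoter the medians were 290 bp for bound and 307 bp for unbound ones, the opposite order; neither contrast was tested.

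The summits lay upstream of the member's nearest TSS in 14 of 15 cases, at a median of -139 bp with a range from -233 to 88. At Taf4 and MED6, with 3 and 5 TSSs, that TSS was internal and the summit lay within the gene. Over all bound genes the median was -126 bp and 80.4% were upstream. The median over the members bound in each replicate was -124.5, -156.5 and -143 bp, a mean of -141 ± 16.1 (SD, n = 3). These values come from the replicate lists, and none are given there for all genes. Their SD does not measure the spread among genes, and the difference from all bound genes was not tested. The bound members lay on 2L (2 of 7 members, against 24.3% of all genes on that arm), 2R (2 of 5, 24.9%), 3L (6 of 12, 25.8%) and 3R (5 of 10, 26%). On X 0 of 4 members were bound, against 22.6% of all genes there, and on chromosome 4 0 of 2, against 11.2%, too few for a statement on either.

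**Figure D4:**
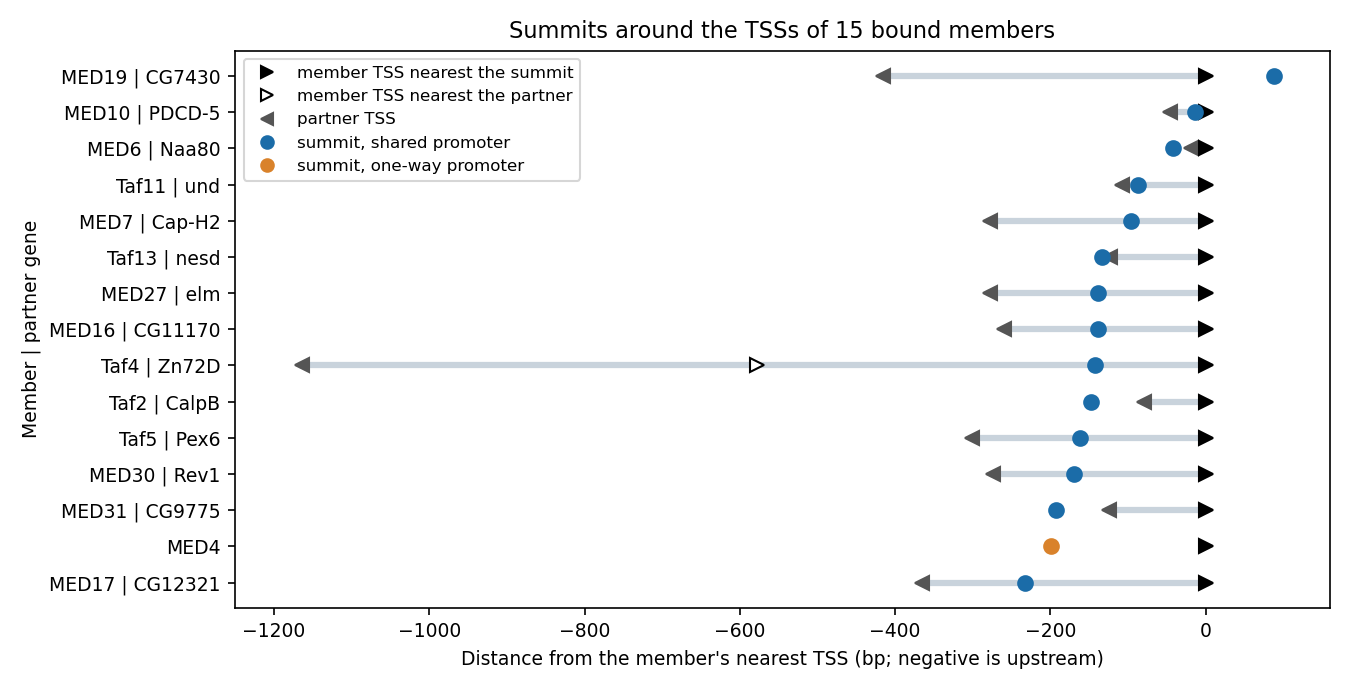
Position of the strongest summit (circles) relative to the member's nearest TSS (horizontal axis, bp, negative is upstream) for the 15 bound members, with the TSS of the partner at 14 shared promoters. Summits lie from -233 to 88 bp, and those of Taf2, Taf13, MED6 and MED31 lie beyond the partner's TSS.

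The 25 unbound members fell into those with a weaker region and those with none. Counting any of the 30000 regions of the pooled list, background included, 25 of the 40 members had one in reach, 62.5% against 47.5% of all genes, and 10 of these were unbound. By promoter kind, 71.0% of shared and 33.3% of one-way members had one, against 63.5% and 38.5% of all genes. MED28, between head and tail, stood just outside with a signal of 197.8, or 99.8% of the lowest signal of the reproducible set, 198.3. The tail genes MED23 and MED15 had 196.2 and 178.4, and the head gene MED8 183.8. MED8 and MED28 were called in replicate 2 alone and MED15 in replicate 3 alone. MED11, MED20, Taf9 and Taf3 had between 52.5 and 86.2. MED20 has its TSS 47 bp from that of Trf, a relative of the TATA-binding protein.

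Taf10 and Taf10b, paralogs whose TSSs lie 45 bp apart on opposite strands, are each other's partners and shared 1 region with a signal of 125.7, called in replicate 1 alone. Taf7 was likewise called in replicate 1 alone, with no pooled region. MED15 has a reproducible summit just beyond the limit, 542 bp upstream, with a signal of 1434 and 271 bp from the TSS of its partner CG4297. The other genes with no pooled region were MED1, MED9, MED14, MED18, MED21, MED22, MED24, MED25 and MED26 of Mediator and Taf1, Taf6, Taf8, Taf12 and Taf12L of TFIID. They include Taf1, the largest subunit, the histone fold pair partner of Taf4, Taf12, and Taf12L, a testis form of it.

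MED25, a tail subunit that contacts activators in human cells, differed between the lists. It was among the strongest regions of all 3 replicates, at 4.31, 3.93 and 3.86 times the list median (mean 4.04 ± 0.244, SD, n = 3), with the strongest summits at -79, -314 and -335 bp. Replicate 3 also had a region with its summit at -78 bp, at 3.57 times the median. The pooled list had no region within 500 bp of its TSS, and its nearest pooled summit lay at -1299 bp with a signal of 80.8. Rounded to 3 digits, this mean of MED25 (FBgn0038760; 3R, 20008947 to 20011712, plus strand) is the same as that of the bound MED7. Of 2577 genes called in all 3 replicates 37 were unbound, and 19 of those had no pooled region within 500 bp. MED25 was the only member among the 37. Why the lists differ was not tested.

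At the members' summits the known promoter motifs searched gave counts of 0 to 3, read here against the other promoter peaks. Within 50 bp of the summit, on either strand, the full DRE (TATCGATA, bound by DREF) was found at 0 of 15 bound members and 2.73% of the other 2561 promoter peaks. Its core CGATA, which lies within the full DRE, was found at MED27 and Taf11, 13.3% against 19.3% of the other peaks and 15.9% of all promoters. The core of motif 1 (GGTCACAC), the E-box (CAGCTG), the core of motif 7 (CATCNCTA), the GAGA element (GAGAG) and the Zelda site (CAGGTAG) were each at 0 of 15, against 1.72%, 5.31%, 1.84%, 9.68% and 0.312% of the other promoter peaks and 0.868%, 4.21%, 1.06%, 13.0% and 0.567% of all promoters. The TATA box (TATAAA) was at 3 members, MED17, Taf5 and Taf11, or 20% against 21.3% of the other peaks and 20.1% of all promoters. The initiator (TCAGT) was at MED7 and MED19, 13.3% against 17.3% and 15.4%. At each of these TATA box and initiator members the window did not reach the member's nearest TSS. The counts are matches of letters, and their place relative to a TSS was not scored. With 15 windows, shares of this size differ by 1 or 2 genes, and no difference from the other peaks was tested. With 100 bp to each side the DRE was at 1, the core of motif 1 at 2, GAGA at 2, the TATA box at 6 and the initiator at 4 of the 15, against 6.25%, 4.26%, 22.0%, 36.1% and 32.2% of the other peaks. The DRE core was then at 3 of the 15, against 35.7%. The E-box, the core of motif 7 and the Zelda site stayed at 0, against 12.3%, 5.12% and 0.742%.

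The 5 words marked in the printed sequences were chosen on the 6548 peaks with no member in reach, as the words of 6 letters with the largest ratio of summit to flank windows, 2.19 to 2.40. At least 1 of them lay within 50 bp of the summit at 11 of 15 bound members, 73.3%, against 49.0% of the other promoter peaks, 46.0% of all promoters, 2 of 30 windows centred 500 bp to either side of the members' summits, and 14 of the 25 unbound members. The members without one were MED4, MED10, MED17 and MED19. All 5 words hold A and T alone, and the members' windows were rich in both: median GC was 26.7% (14.9 to 50.5), against 34.7% at other promoter peaks, 35.6% at all promoters and 36.6% at unbound members. Whether the words differ beyond this composition was not tested.

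Other genes of the initiation machinery came from lists written by hand, with earlier results of these data known. They gave 25 bound of 57, or 43.9% with an exact 95% interval of 30.7 to 57.6. All genes gave 24.8%. Among the 57, 19 of 32 with a shared promoter and 6 of 25 with a one-way promoter were bound. Over all genes 40.6% of shared and 15.8% of one-way promoters were bound, and no difference was tested. The Mediator subunits with other symbols gave 2 of 5: skd, the MED13 gene, with a signal of 380 and CycC with 266. The unbound ones were kto, Cdk8 and ix. Tbp, the TATA-binding protein itself, was unbound (0 of 1), as were the other testis Tafs (0 of 4) and the TBP relatives Trf and Trf2 (0 of 2). TFIIA, TFIIB, TFIIE and TFIIF together had 4 of 8, TfIIA-S (502), TfIIB (437), TfIIA-L (420) and TfIIEbeta (345), the values in brackets being pooled signals.

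TFIIH, which opens promoter DNA, had 4 of 10: Ssl1 (3655), mrn (731), Xpd (362) and Tfb1 (243). Ssl1 shares its promoter with Chro, a chromatin protein gene. Subunits of polymerase II itself had 7 of 12, led by Polr2B (1109), Polr2H (686), Polr2J (658) and Polr2F (485). The subunits of SAGA outside TFIID, a coactivator that has several Tafs in common with it, had 8 of 15, led by Ada2b (1566), Gcn5 (1559), Ada3 (665) and e(y)2 (475). The Ada2b summit lay 488 bp downstream of the nearest TSS, close to the 500 bp limit. The strongest member of the 40, MED30 with 1082, lay below Ssl1, Ada2b, Gcn5 and Polr2B.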

How the data were processed

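The authors called regions for each of 3 replicates with 1 control, and for all replicates pooled, and made the IDR set out of these lists, per the notes deposited with each sample. The deposited signal column is the authors' value per region and ranks regions within a list. Aligner, caller and IDR threshold: not given in the sources used here. Read depth is unknown. The dm3 lists were not used.

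TSSs came from Ensembl release 115 (19607 TSSs) and sequence from RefSeq, both dm6, coordinates 1-based. The deposited summit offset was read as counted from 1, since it reached the region width. Replicate ratios divide a region's signal by the median of its 30000 regions. Medians over the bound members use the region that spans the pooled summit; values given for single genes use the strongest region within 500 bp of a TSS. Motif windows reached 50 bp to each side; those of unbound promoters were centred at -126 bp. Shares have exact Clopper-Pearson intervals (95%). The 2 comparisons used Fisher's exact test (scipy 1.17.1, Python 3.11.15, pandas 2.3.3, numpy 2.4.6; plots by matplotlib 3.10.9), Benjamini-Hochberg adjusted, threshold 0.05; no test was run across all genes. The calls were checked on summits planted at known positions.

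All members are named; bound ones are given with signal and distance, and of the other lists up to 4 genes per class by signal. The members and lists were chosen with earlier results of these data known. Alternatives were other TSS windows and rules, stronger peaks, other partner limits, and each replicate left out by keeping only IDR peaks matched (50% of length) among the strongest 6565 regions of both others.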

Additional observations from a re-analysis of the deposited data

How the results depend on the processing

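Giving each summit only to the gene of its nearest TSS moved the number of bound members from 15 to 7 and their median distance from -139 to -96 bp, by construction, since a shared summit then counts once. The same rule lowered the difference between shared and one-way members from 34.1 to 8.24 points, with 6 of 31 against 1 of 9 bound. Counting partners of any biotype moved the difference between shared and one-way members from 34.1 to 46.9 points and took it past the threshold (Fisher's exact test, adjusted p = 0.032); over all alternatives the adjusted p for this difference ran from 0.032 to 1. With subunits under other symbols it was 0.068 and with partners within 500 bp 0.081. Only the any-biotype rule passed, and it moved MED4 alone from one-way to shared. Mediator against TFIID passed under no alternative, with differences of 2.67 to 17.3 points.

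Leaving out each replicate gave 12 to 13 bound members while the share of all genes fell to between 18.1% and 18.8%, differences of 5.33 to 9.33 points between the complexes and 24.4 to 27.6 points between promoter kinds, ratios of 4.25 to 4.56 and distances of -142 to -139 bp. Taf13 was lost each time, MED6 without replicate 1 or 2 and MED17 without replicate 2 or 3. Windows of 250 and 1000 bp gave 15 and 16 bound members, the latter adding MED15. The share of all genes is given here at 500 bp only. Summit windows of 25 and 100 bp to each side gave 8 and 13 members with a word, against 30.1% and 69.4% of the other promoter peaks. Counting the Taf10 pair as 1 locus and scoring single replicates (18, 18 and 15 bound) were chosen after seeing the data. No paired analysis was possible because all samples belong to 1 group.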

Other observations

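Some TFIID subunits pair through their histone folds, and their genes can be set side by side. Taf11 and Taf13 were both bound, although Taf13 was called in replicate 2 alone. Taf4 was bound and its partner Taf12 was not, and neither Taf6 nor Taf9, which pair with each other, was bound. Taf10 and Taf10b lie on 1 region of 125.7, under the lowest reproducible signal of 198.3.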
